A study of Homo sapiens with 14 samples.

Results

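The 10 genes described here encode matrix metalloproteinases: MMP1, MMP2, MMP3, MMP7, MMP9, MMP11, MMP13, MMP14, MMP15 and MMP16. They were chosen by symbol, with earlier results of these data known, through the Ensembl identifier of each row. They are 10 of the 60587 genes in the deposited tables. All 10 passed the filter on low counts, as did 17838 genes in all, MMP3 through its day 45 libraries. WA01 (H1), an established line of human embryonic stem cells, was cultured as cartilage pellets in chondrogenic medium for 21, 30 or 45 days, and RNA of whole pellets was sequenced. There were 4 libraries at day 21, 5 at day 30 and 5 at day 45. All groups share this 1 line and medium, no untreated cells are among the samples, and the days of culture are the only difference the labels give. The labels do not say whether replicates came from separate cultures, so p-values measure the spread between these libraries, which may be technical.

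Matrix metalloproteinases are zinc enzymes that cut proteins of the extracellular matrix and many proteins on the cell surface. Most are made as inactive proenzymes, are activated by other proteases or by each other, and are held in check by the tissue inhibitors of metalloproteinases, the TIMPs. In the growth plate, where cartilage is replaced by bone, collagenase-3 (MMP13) of hypertrophic chondrocytes, gelatinase B (MMP9) of invading cells and membrane-type 1 metalloproteinase (MMP14) are known from mouse genetics for clearing the cartilage matrix. RNA levels say nothing of proenzyme activation or of protein amount.

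What unites the family is the zinc-binding site of the catalytic domain, in which 3 histidines hold the zinc ion. The 33 bases that encode it are shown for 9 of the 10 genes, from GENCODE 29 transcripts, to show how alike the genes are at this shared stretch. Capitals mark bases identical in all 9, which were 16 of 33.
MMP1: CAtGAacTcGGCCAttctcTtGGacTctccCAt
MMP13: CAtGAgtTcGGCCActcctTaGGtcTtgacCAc
MMP2: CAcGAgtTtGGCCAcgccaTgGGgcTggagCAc
MMP9: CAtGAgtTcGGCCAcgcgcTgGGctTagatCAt
MMP3: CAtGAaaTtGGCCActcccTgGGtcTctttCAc
MMP7: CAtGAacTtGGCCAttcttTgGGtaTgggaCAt
MMP11: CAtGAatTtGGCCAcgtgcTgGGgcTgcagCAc
MMP14: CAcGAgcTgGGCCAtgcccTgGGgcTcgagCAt
MMP15: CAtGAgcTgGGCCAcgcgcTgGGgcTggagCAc
Pairs of these sites shared 18 to 28 of 33 bases.

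The genes lie at these places in GRCh38, with the gene bounds of GENCODE 29. MMP7 (chr11:102520508-102530753), MMP1 (chr11:102789920-102798160), MMP3 (chr11:102835801-102843803) and MMP13 (chr11:102942995-102955734) lie on the minus strand of chromosome 11, within a cluster of 435227 bases whose 9 protein-coding genes are all metalloproteinases. MMP2 (chr16:55389700-55506691) and MMP15 (chr16:58025566-58046901) are on the plus strand of chromosome 16. MMP9 (chr20:46008908-46016561), MMP11 (chr22:23768226-23784316) and MMP14 (chr14:22836557-22849027) are on plus strands, and MMP16 (chr8:88032009-88328025) is on a minus strand. The libraries carry no strand information, and counts of a gene cannot be separated from those of a gene on the opposite strand over the same bases. Such genes overlap MMP1 and MMP3 (WTAPP1), MMP2 (MMP2-AS1 and AC007336.2), MMP9 (SLC12A5-AS1), MMP11 (CHCHD10) and MMP16 (AC090578.1). WTAPP1 reached at most 0.77 TPM in any library. The levels of the other overlapping genes are not given here, and their part in the counts of MMP2, MMP9, MMP11 and MMP16 was not tested.

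Libraries held 18183776 to 33660704 expected counts, the lowest in day 30 replicate 2. The markers of cartilage were present in every library, with summed levels of the 6 chondrocyte genes (TPM, scaled to transcript length) of 16900 to 20400 in day 21, 30300 to 78100 in day 30 and 61300 to 90500 in day 45 libraries. The cell type label reads as embryonic stem cell, yet POU5F1, NANOG and LIN28A, the defining genes of that state, were at most 0.53 TPM anywhere. Day 30 replicates 3, 4 and 5 stand apart: the deviation of a gene from its mean over all libraries correlated with transcript length across 17838 genes at Spearman's rho of -0.43, -0.52 and -0.47, against -0.01 and -0.07 in day 30 replicates 1 and 2. That rho lay within 0.12 to 0.19 in day 45 libraries and 0.14 to 0.26 in those of day 21, and genes are not independent replicates. The library titled day 45 replicate 1 has a treatment label of 30 days and was used at day 45. For the 10 genes, each call that was lost, or direction that turned, without day 30 replicates 3 to 5 or with day 45 replicate 1 placed at day 30 is given with its value or adjusted p.

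Levels across days are CPM, counts scaled to library size, after TMM normalisation. A change is the log2 fold change of the later over the earlier day ± its standard error (SE), and a gene was called where the adjusted p of edgeR's quasi-likelihood test was below 0.05. Differences between the changes before and after day 30 compare total change, and day 30 to 45 is the longer interval. Change per day was not tested. Between day 45 and day 21, 5 of the 10 genes rose and 4 fell, and MMP16 was not called. Of all 17838 genes tested, 57.7% were called in that comparison, 27.1% higher and 30.5% lower, so that calls were common throughout. Both ends of the family's range moved: MMP9 fell by 8.16 on the log2 scale, and MMP3 and MMP7 rose by 6.64 and 6.36. MMP3 passed the filter only through its day 45 libraries, where it is high, so its place in these counts is not independent of its rise. Over 2-fold, 3 rose and 4 fell, where 10.2% and 15.1% of all genes did. The 10 were chosen with earlier results known, so these shares give a setting and not a test of the family. Of 13 other metalloproteinase genes, 5 were tested, of which 1 rose and 2 fell. The median log2 fold change of the 10 was 0.19, against -0.05 for all genes tested. The libraries of days 45 and 21 did not overlap for 7 of the 10 genes, and 51.5% of all genes had such separation. MMP13, MMP14 and MMP16 were the genes whose days overlapped.

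**Figure D1:**
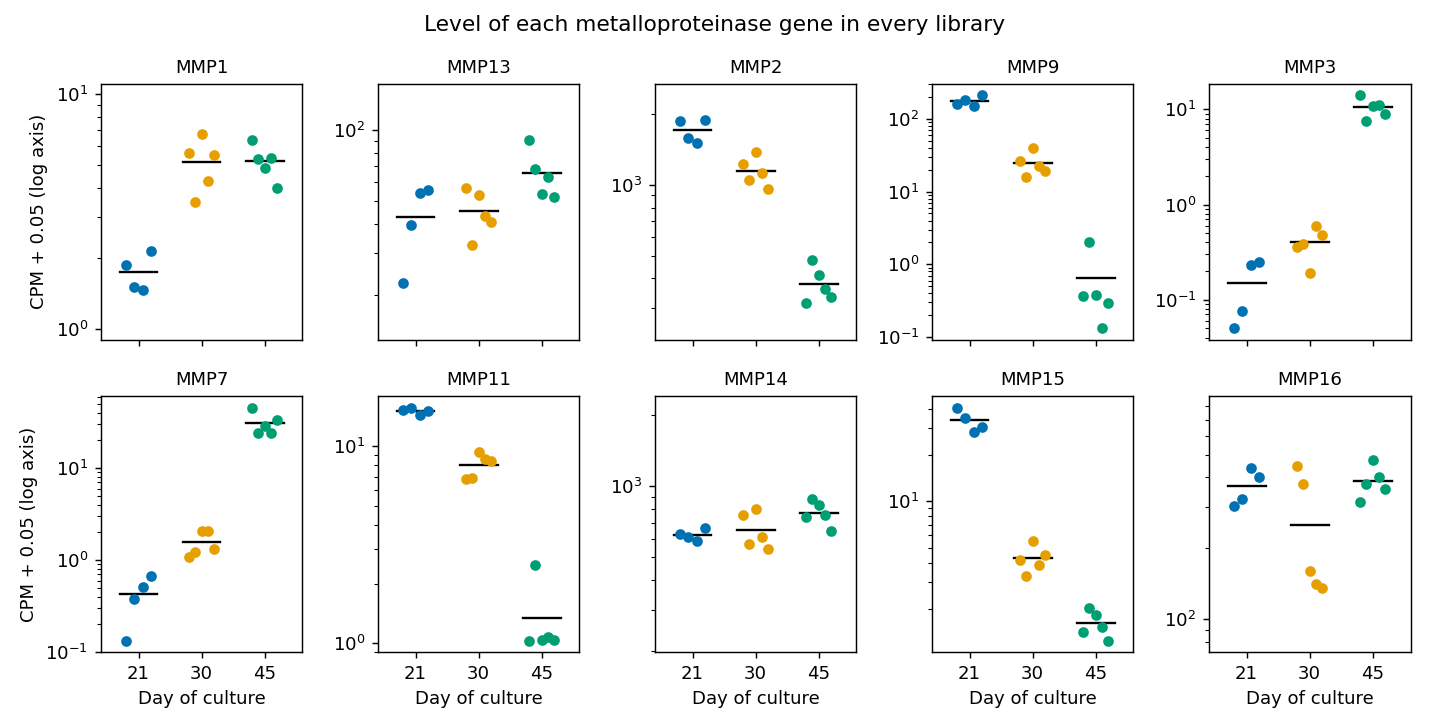
Levels of the 10 genes in each of the 14 libraries, in CPM after TMM normalisation plus 0.05 on log axes whose ranges differ between panels, by day of culture. Points are libraries and bars are day means. MMP3 and MMP7 are highest at day 45, MMP2, MMP9, MMP11 and MMP15 are highest at day 21, and MMP16 at day 30 splits into 2 high and 3 low libraries.

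The collagenases cut the triple helix of fibrillar collagens. MMP1, interstitial collagenase, had 1.83, 1.47, 1.42 and 2.10 CPM at day 21, 5.55, 3.43, 6.72, 4.22 and 5.46 CPM at day 30, and 6.32, 5.25, 4.81, 5.31 and 3.92 CPM at day 45. All libraries of days 30 and 45 were above all of day 21, while days 30 and 45 overlapped. MMP1 rose by day 30 (log2 fold change 1.58 ± 0.21, adjusted p = 7e-06) and showed no call from then on (0.01 ± 0.18, adjusted p = 0.972). Its change after day 30 was smaller than its change before (difference -1.57, adjusted p = 7.16e-04). At 1.72 to 5.32 TPM, a level scaled to transcript length, it was a low member at every day.

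MMP13, the collagenase that cuts type II collagen in hypertrophic cartilage, had 22.3, 39.6, 53.8 and 55.7 CPM at day 21, 56.6, 32.6, 52.7, 43.0 and 40.8 CPM at day 30, and 90.3, 68.5, 53.6, 63.4 and 51.7 CPM at day 45. Day 21 replicate 1 was the lowest library and day 45 replicate 1 the highest, and all 3 days overlapped. MMP13 rose between day 45 and day 21 by 0.61 ± 0.24 (adjusted p = 0.0346) and between day 45 and day 30 by 0.54 ± 0.22 (adjusted p = 0.0484). Neither call was firm: the adjusted p for day 45 against day 21 was 0.0972 without day 21 replicate 1, 0.0839 without day 21 replicate 2, 0.0955 without day 45 replicate 1 and 0.0568 without day 45 replicate 2. Without day 30 replicate 2 or day 45 replicate 1, the adjusted p for day 45 against day 30 was 0.12 and 0.141, and leaving out any 1 of day 21 replicate 2, day 30 replicates 4 and 5, and day 45 replicates 2 and 4 also ended that call. Without day 30 replicates 3 to 5, the changes of MMP13 were 0.60 for day 45 against day 21 (adjusted p = 0.105) and 0.54 for day 45 against day 30 (adjusted p = 0.287). With day 45 replicate 1 placed at day 30, they were 0.47 (adjusted p = 0.202) and 0.17 (adjusted p = 0.634). On log2(TPM + 1), tested with limma, the change between day 45 and day 21 was 0.23 (adjusted p = 0.422), and that between day 45 and day 30 stayed called (0.70, adjusted p = 0.0155).

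Marker genes of hypertrophic chondrocytes moved far more than MMP13 did. COL10A1, the type X collagen that defines them, averaged 1734 ± 891 CPM at day 45 and 11.02 ± 2.5 CPM at day 21 (SD, n = 5 and 4), a log2 fold change of 7.30 ± 0.38 (edgeR adjusted p = 1.48e-10). IHH, the signal that these cells send, rose by 5.79 ± 0.53, and PTH1R, the receptor for parathyroid hormone-related protein, by 4.08 ± 0.27. SPP1, osteopontin, fell by 2.05 ± 0.48, and PANX3 and IBSP stayed under 1 TPM in every library. Day 21 replicate 1, low in MMP13, was also the lowest day 21 library in SPP1, at 21.8 CPM against 57.6 to 111.6 CPM in the other 3, and in DMP1, at 69.5 CPM against 133.9 to 177.5 CPM. Whether that library's makeup had a part in the MMP13 values was not tested.

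The gelatinases cut denatured collagen and type IV collagen. MMP2, gelatinase A, had 1856, 1582, 1506 and 1873 CPM at day 21, 1229, 1049, 1373, 1124 and 959 CPM at day 30, and 314, 479, 413, 361 and 335 CPM at day 45. The 3 days did not overlap. MMP2 fell by day 30 (-0.57 ± 0.14, adjusted p = 0.00217) and by more in the longer interval after it (-1.59 ± 0.13, adjusted p = 9.68e-08). The difference between the intervals was -1.02 (adjusted p = 0.00133). On log2(TPM + 1), where the median of all genes also shifted, that difference was -0.47 (adjusted p = 0.117) with limma.

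MMP9, gelatinase B, had 159, 182, 150.2 and 210.1 CPM at day 21, 26.2, 16.0, 39.9, 22.7 and 18.99 CPM at day 30, and 0.314, 1.99, 0.331, 0.0823 and 0.247 CPM at day 45. The days were fully apart, and the day 45 libraries rested on 8, 53, 9, 2 and 6 expected counts. MMP9 fell by 2.82 ± 0.36 on the log2 scale by day 30 (adjusted p = 1.55e-05) and by 5.34 ± 0.48 from there to day 45 (adjusted p = 8.12e-07). Between day 45 and day 21 the log2 fold change was -8.16 ± 0.50 (adjusted p = 4.95e-09), the largest fall among the 10 genes. From summed counts, day 45 was 286.5-fold lower than day 21, with an exact 95% interval of 229.5 to 362.6 that covers counting error only. Day 45 replicate 2 set much of the remaining level: without it the log2 fold change was -9.45.

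In whole pellets, fewer cells of a type and less RNA per cell cannot be told apart, and MMP9 is a known product of osteoclasts, macrophages and neutrophils. Of 11 osteoclast and macrophage markers, 9 were under 1 TPM in every library (ACP5, TNFRSF11A, CALCR, DCSTAMP, OCSTAMP, CSF1R, PTPRC, CD14 and ITGAM), and OCSTAMP was at 0 in all of them. The summed level of the 11 was 35.7 to 48.7 TPM in day 21 libraries, 24.5 to 40.4 TPM in day 30 libraries and 56.7 to 74.8 TPM in day 45 libraries, and it came almost wholly from CTSK and CD68. CTSK, the collagen-cutting cathepsin K, fell between day 45 and day 21 by 1.94 ± 0.25 on the log2 scale (adjusted p = 4.55e-06), while CD68, a lysosomal protein, rose by 5.64 ± 0.26 (adjusted p = 2.63e-11). Of 6 neutrophil markers, ELANE, MPO, PRTN3 and CEACAM8 were under 1 TPM in every library, and the sum of the 6 was at most 4.31 TPM. LCN2, whose protein binds MMP9, had 0.707 to 1.60 CPM in day 45 libraries and was at 0 in all 4 of day 21.

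The stromelysin MMP3, which cuts proteoglycans and activates procollagenases, had 0, 0.0253, 0.181 and 0.198 CPM at day 21, 0.306, 0.337, 0.139, 0.546 and 0.423 CPM at day 30, and 14.01, 7.58, 10.8, 10.9 and 8.86 CPM at day 45. Day 45 lay wholly above the other days, and days 21 and 30 overlapped. MMP3 rose by 4.88 ± 0.35 between day 45 and day 30 (adjusted p = 2.27e-08) and by 6.64 ± 0.43 between day 45 and day 21 (adjusted p = 9.08e-10). At day 21 the gene had 15 counts over 4 libraries, which gives a count ratio of 104 for day 45 over day 21 with an exact 95% interval of 62.8 to 186.3. MMP3 passed the filter on low counts only through its day 45 libraries: with only days 21 and 30 fitted it was not tested. In the fit of all days its change between day 30 and day 21 was 1.75 ± 0.56 (adjusted p = 0.0142), on 39 counts at day 30. That call was lost without day 30 replicates 3 to 5 (1.62, adjusted p = 0.1) and on log2(TPM + 1) with limma (0.33, adjusted p = 0.155). With limma on log2(TPM + 0.1) it was kept (1.25, adjusted p = 0.0248).

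Matrilysin, MMP7, the smallest of these enzymes and best known from epithelia, had 0.0834, 0.329, 0.466 and 0.623 CPM at day 21, 1.03, 1.18, 2.04, 2.03 and 1.27 CPM at day 30, and 45.5, 23.8, 28.7, 24.3 and 33.3 CPM at day 45. None of the 3 days overlapped. MMP7 rose by 1.99 ± 0.38 by day 30 (adjusted p = 3.6e-04), by 4.37 ± 0.28 between day 45 and day 30 (adjusted p = 8.19e-09), and by 6.36 ± 0.35 between day 45 and day 21 (adjusted p = 1.55e-10). The count ratio of day 45 over day 21 was 82.9, with an exact 95% interval of 63.7 to 109.9. Without day 30 replicates 3 to 5 the change by day 30 was 1.53 (adjusted p = 0.0508). EPCAM and CDH1, defining genes of epithelium, were at most 0.35 TPM in any library, whereas the keratin KRT19 rose by 2.13 ± 0.31 and KRT8 fell by 0.40 ± 0.13 between day 45 and day 21.

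In total, both MMP3 and MMP7 gained more after day 30 than in the shorter interval before it. The differences were 3.13 (adjusted p = 0.00666) and 2.39 (adjusted p = 0.0029). These differences depend on the library with conflicting labels and were also lost with voom (adjusted p = 0.218 and 0.101). With day 45 replicate 1 placed at day 30, they were -2.84 (adjusted p = 0.256) and -2.94 (adjusted p = 0.184), and the changes between day 45 and day 30 were 1.84 (adjusted p = 0.134) and 1.62 (adjusted p = 0.161). The changes between day 30 and day 21 were then 4.67 (adjusted p = 0.0141) and 4.56 (adjusted p = 0.00807). That library had 14.01 CPM of MMP3 and 45.5 CPM of MMP7, the highest values of all 14, while the 5 libraries of day 30 reached at most 0.546 and 2.04 CPM.

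MMP11, stromelysin-3, which furin activates inside the cell and which is released in active form, had 15.3, 15.7, 14.4 and 15.0 CPM at day 21, 6.81, 6.86, 9.26, 8.53 and 8.38 CPM at day 30, and 0.981, 2.44, 0.992, 1.03 and 0.989 CPM at day 45. The days did not overlap, and 4 of the 5 day 45 libraries lay within 0.981 to 1.03 CPM. MMP11 fell by 0.92 ± 0.19 on the log2 scale by day 30 (adjusted p = 6.22e-04), by 2.62 ± 0.21 between day 45 and day 30 (adjusted p = 6.82e-08), and by 3.54 ± 0.22 between day 45 and day 21 (adjusted p = 4.28e-10). FURIN itself rose between day 45 and day 21 by 1.13 ± 0.13 (adjusted p = 1.39e-06).

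The membrane-type enzymes are anchored at the cell surface, and MMP14, membrane-type 1, activates pro-MMP2 there together with TIMP2. MMP14 had 628, 608, 585 and 663 CPM at day 21, 753, 569, 802, 611 and 542 CPM at day 30, and 740.0, 883, 836, 760 and 645 CPM at day 45. All 3 days overlapped. The largest of its changes, 0.32 ± 0.13 between day 45 and day 21, passed the test narrowly (adjusted p = 0.0448). That call was lost without any 1 of day 21 replicates 1 to 3 (adjusted p = 0.0767, 0.096 and 0.104) or of day 45 replicates 1 to 4 (adjusted p = 0.0529, 0.109, 0.0919 and 0.0606), with day 45 replicate 1 placed at day 30 (0.33, adjusted p = 0.0755), and on log2(TPM + 1), where the change was -0.05 (adjusted p = 0.755). Day 30 against day 21 gave 0.08 ± 0.13 (adjusted p = 0.629) with edgeR but -0.51 (adjusted p = 0.00381) with limma on log2(TPM + 1).

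MMP15, membrane-type 2, had 40.6, 34.7, 28.3 and 30.6 CPM at day 21, 4.10, 3.20, 5.51, 3.82 and 4.46 CPM at day 30, and 1.37, 1.99, 1.76, 1.48 and 1.195 CPM at day 45. The days were fully apart. Most of its fall came before day 30 (-2.98 ± 0.16, adjusted p = 4.47e-10), with a smaller one after it (-1.43 ± 0.17, adjusted p = 3.97e-06), and the difference between the intervals was 1.55 (adjusted p = 2.76e-04). Over the whole time MMP15 fell by 4.42 ± 0.17 on the log2 scale (adjusted p = 3.88e-12). MMP15 thus had its larger total fall in the shorter early interval, while MMP2, MMP9 and MMP11 had theirs in the longer late interval. Their differences were -1.02 (adjusted p = 0.00133), -2.52 (adjusted p = 0.00699) and -1.70 (adjusted p = 4.88e-04). Those of MMP2, MMP9 and MMP11 were lost on log2(TPM + 1) with limma (adjusted p = 0.117, 0.389 and 0.192), where the median of all genes was 0.37. With limma on log2(TPM + 0.1), MMP9 kept its call (-2.14, adjusted p = 0.0292) and MMP2 and MMP11 did not (adjusted p = 0.116 and 0.0585). All 3 were lost with day 45 replicate 1 placed at day 30 (adjusted p = 0.33, 0.253 and 0.194), and that of MMP9 without day 30 replicates 3 to 5 (adjusted p = 0.109). MMP15 kept its call in every alternative run.

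MMP16, membrane-type 3, had 304, 324, 440 and 402 CPM at day 21, 447, 375, 160.0, 141 and 136 CPM at day 30, and 314, 375, 474, 403 and 357 CPM at day 45. Day 30 held the 3 lowest values, in replicates 3, 4 and 5, and also 447 CPM in replicate 1, which only day 45 replicate 3 exceeded. No comparison called it in the main fit: the log2 fold changes were -0.55 ± 0.31 by day 30 (adjusted p = 0.153), 0.61 ± 0.30 between day 45 and day 30 (adjusted p = 0.0914) and 0.07 ± 0.31 between day 45 and day 21 (adjusted p = 0.871). Of 27 alternatives, 4, 5 and 0 called these changes, in that order. With voom the first 2 were -0.90 (adjusted p = 0.00469) and 1.08 (adjusted p = 0.00129). Without day 30 replicate 1 they were -0.86 (adjusted p = 0.0155) and 0.92 (adjusted p = 0.00781). Without day 30 replicates 3 to 5, the change by day 30 was 0.16 (adjusted p = 0.462) and that between day 45 and day 30 was -0.11 (adjusted p = 0.611). MMP16 has long transcripts, and the deposited mean transcript length, which weights each transcript by its estimated share, was 5528 to 8819 bases in day 21 libraries, 10015 to 11021 bases in day 30 libraries and 6490 to 7753 bases in day 45 libraries. All 5 day 30 libraries were above all others in that length, including replicates 1 and 2, whose CPM were among the higher values. On log2(TPM + 1), which divides by that length, MMP16 was lower at day 30 than at day 21 by limma (-1.82, adjusted p = 2.35e-04). Another alternative, chosen after the data were seen, did not divide by that length: in each library it removed the smooth trend, over all genes, of a gene's deviation on its transcript length averaged over the 14 libraries. There the change between day 30 and day 21 was 0.00 (adjusted p = 0.997).

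**Figure D2:**
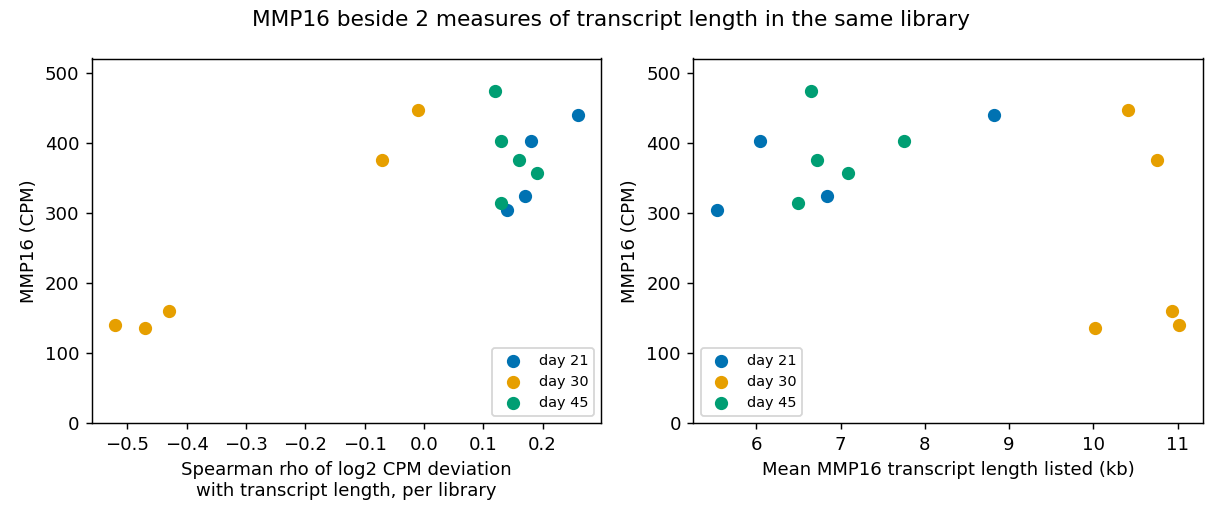
MMP16 in CPM in each of the 14 libraries, beside the library's Spearman correlation between deviation of log2 CPM and transcript length across 17838 genes (left) and the mean MMP16 transcript length in the deposited table, in kb (right), coloured by day. The 3 day 30 libraries at 136 to 160.0 CPM have rho of -0.43 to -0.52, and all 5 day 30 libraries have listed lengths above 10 kb.

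In the comparison of day 30 with day 21, 3 of the 10 genes were called higher (MMP1, MMP7 and, through the filter on all days, MMP3), 4 fell (MMP2, MMP9, MMP11 and MMP15) and 3 were not called, where 54.4% of all genes were called, 27.2% higher and 27.1% lower. With only those 2 days fitted, 2 were called higher and MMP3 was not tested. Libraries of those days did not overlap for 6 of the 10, against 42.4% of all genes. In the comparison of day 45 with day 30, 3 rose (MMP3, MMP7 and MMP13), MMP2, MMP9, MMP11 and MMP15 fell and 3 were not called, against 56.3% called of all genes, 27.6% higher and 28.7% lower, and again 6 of the 10 had no overlap, against 38.3%. The later change differed from the earlier in 7 of the 10 genes, higher in MMP3, MMP7 and MMP15 and lower in MMP1, MMP2, MMP9 and MMP11, where 52.7% of all genes differed, 25.3% higher and 27.5% lower. MMP2, MMP9, MMP11 and MMP15 kept their falls in each of the alternatives run, in all 3 comparisons of days.

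The scale bears on the smaller changes. On log2(TPM + 1) the median of all genes tested was -0.35 for day 30 against day 21, -0.34 for day 45 against day 21 and 0.37 for the later minus the earlier change, against 0.02, -0.05 and -0.08 with TMM. Calls by limma on that scale split into 1788 higher and 9032 lower genes for day 30 against day 21, where TMM gave 4858 and 4838, and into 2140 and 8720 for day 45 against day 21, where TMM gave 4836 and 5448. The later minus the earlier change split into 7348 higher and 2331 lower, where TMM gave 4505 and 4899. Among the 10 genes the counts on that scale were 2 higher and 6 lower for day 30 against day 21, 3 higher and 4 lower for day 45 against day 21, and 6 higher and 1 lower for the later minus the earlier change. Relative to the median of all genes, MMP14 changed between day 45 and day 21 by 0.37 with TMM and 0.29 on the TPM scale, and MMP13 by 0.66 and 0.57. Between day 30 and day 21, MMP14 moved relative to the median by 0.06 with TMM and by -0.16 on the TPM scale.

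**Figure D3:**
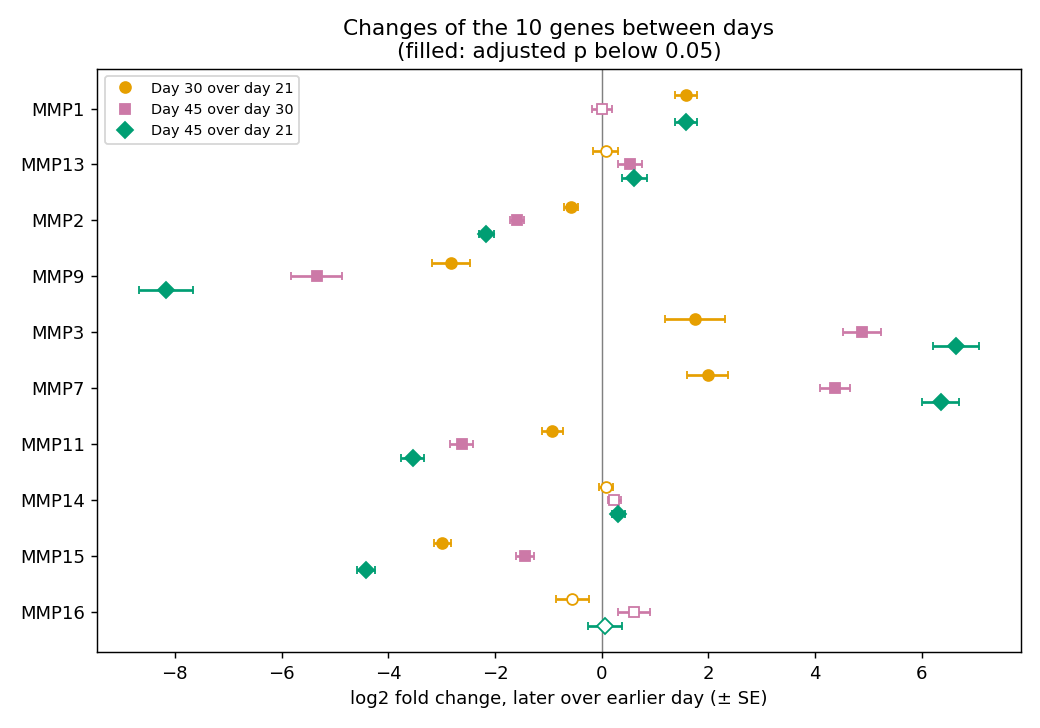
Fitted log2 fold changes of the 10 genes for day 30 over day 21 (circles), day 45 over day 30 (squares) and day 45 over day 21 (diamonds), with bars of 1 SE; filled symbols have an edgeR adjusted p below 0.05. MMP9 reaches -8.16 and MMP3 6.64, while MMP13, MMP14 and MMP16 stay between -0.55 and 0.61.

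Levels of different genes are compared here in TPM, which is per length. At day 21 the order was MMP2, MMP14, MMP9, MMP16, MMP13, MMP15, MMP11, MMP1, MMP7 and MMP3, with means from 1505 TPM for MMP2 to 0.13 TPM for MMP3. Libraries of neighbours in that order overlapped only for MMP15 with MMP11 and for MMP7 with MMP3. At day 30 MMP2 still led, at 734 TPM, followed by MMP14 at 354 TPM, and MMP16, MMP13 and MMP9 overlapped with their neighbours at 37.7, 31.8 and 17.2 TPM, as did MMP7 and MMP15. At day 45 MMP14 led at 480.0 TPM, above MMP2 at 259 TPM and MMP16 at 86.1 TPM, while MMP13 and MMP7 overlapped at 52.1 and 51.6 TPM. MMP9 was the last gene at day 45, at 0.424 TPM, where MMP11, MMP15 and MMP9 overlapped in turn, and the third at day 21, at 169 TPM.

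The summed level of the 10 genes was 2367 ± 125 TPM at day 21, 1189 ± 204 TPM at day 30 and 946 ± 111 TPM at day 45 (SD, n = 4, 5 and 5). On log2(TPM + 1) the median of all genes also fell, by -0.35 at day 30 and -0.34 at day 45 against day 21. How much of the lower sum that shift makes up was not tested. MMP2 made up 63.6, 62.0 and 27.1% of it at days 21, 30 and 45, and MMP14 made up 21.0, 29.6 and 50.8%. The share of MMP9 was 0.0413% at day 45 and 7.13% at day 21, and that of MMP7 was 5.61% at day 45 and 0.0354% at day 21. The ratio of MMP14 to MMP2 in TPM was 0.309 to 0.348 in day 21 libraries, 0.413 to 0.582 in day 30 libraries and 1.60 to 2.34 in day 45 libraries. These ratios did not overlap between days, and every day 45 library was above 1.

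**Figure D4:**
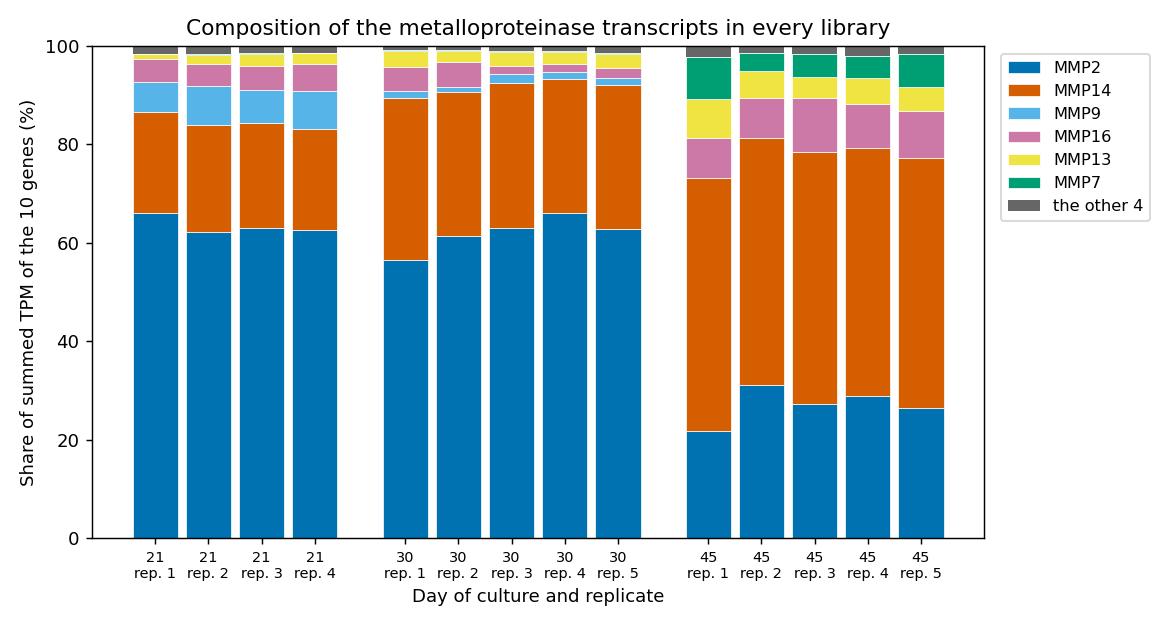
Share of each gene in the summed TPM of the 10 genes, in percent, for each of the 14 libraries ordered by day and replicate. MMP2 averages 63.6% at day 21 and MMP14 50.8% at day 45, and MMP7 becomes visible at day 45 with 5.61%.

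The cluster on chromosome 11 was not read out evenly. Its members MMP13, MMP7, MMP3 and MMP1 reached 68.9, 73.0, 13.8 and 5.32 TPM in their highest library, while its other 5 genes (MMP20, MMP27, MMP8, MMP10 and MMP12) stayed at or under 0.37 TPM in every library, and MMP8 and MMP27 were at 0 throughout. Between day 45 and day 21 the ratio of library-scaled count sums was 104 for MMP3, 82.9 for MMP7, 3.03 for MMP1 and 1.53 for MMP13. MMP3 lies between MMP1 and MMP13 in the annotated order.

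Promoter sequence, from 250 bases before to 50 after the start, was given by RefSeq (GRCh38.p14) for 4 of the 10 genes: MMP7, MMP11, MMP14 and MMP15. The 250 bases before the start are printed for MMP7, which rose, at chr11:102530748-102530997 on the minus strand, and for MMP11 (chr22:23772599-23772848, plus strand) and MMP15 (chr16:58025504-58025753, plus strand), which fell. In capitals are exact matches, on either strand, to TGANTCA (the AP-1 element), TATAAA (the TATA box), GGGCGG (the GC box) and TGTGGT (the RUNX core); none of these overlap.
MMP7: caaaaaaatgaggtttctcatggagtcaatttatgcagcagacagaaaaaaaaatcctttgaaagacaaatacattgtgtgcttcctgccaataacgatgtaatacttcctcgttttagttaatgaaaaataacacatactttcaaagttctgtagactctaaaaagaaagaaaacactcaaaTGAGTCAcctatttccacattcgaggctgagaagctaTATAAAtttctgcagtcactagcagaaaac
MMP11: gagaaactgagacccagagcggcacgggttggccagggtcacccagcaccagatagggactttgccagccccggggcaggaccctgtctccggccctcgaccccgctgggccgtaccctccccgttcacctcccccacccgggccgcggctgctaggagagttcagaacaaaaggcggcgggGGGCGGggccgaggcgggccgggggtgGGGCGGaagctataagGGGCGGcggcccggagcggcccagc
MMP15: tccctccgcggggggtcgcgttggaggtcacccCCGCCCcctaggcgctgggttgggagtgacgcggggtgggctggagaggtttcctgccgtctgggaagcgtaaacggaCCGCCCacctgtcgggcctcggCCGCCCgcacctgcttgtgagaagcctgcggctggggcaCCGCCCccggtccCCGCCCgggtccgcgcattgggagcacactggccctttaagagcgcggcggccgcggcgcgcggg
The MMP7 promoter held TGAGTCA at -67 to -61 and TATAAA at -30 to -25, motifs found in 7.71% and 11.5% of 35116 RefSeq promoters of the same length. MMP11 held 4 GC boxes, 1 of them after the start, MMP15 held 5 and MMP14 held 1, and 45.0% of all promoters held at least 1. MMP14 also held the RUNX core, as ACCACA at -177 to -172, found in 13.1% of promoters. GC content was 35.7% for MMP7, 74.3% for MMP11, 55% for MMP14 and 75.3% for MMP15, with a median of 58.7% over all promoters. A match is a description of the letters, not of a bound site.

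Genes of metalloproteinase transcription were read from a list of 15, made up of transcription factors and the RUNX2 repressor HDAC4. Between day 45 and day 21, 12 rose, 2 fell and 1 was not called, with a median log2 fold change of 1.62, against -0.05 for all genes. Of all genes tested, 27.1% were called higher and 30.5% lower. AP-1 subunits were among those that rose: FOSL1 by 5.38 ± 0.33 (13.6 ± 3.2 CPM at day 45 and 0.322 ± 0.161 CPM at day 21), FOS by 2.79 ± 0.16 and JUNB by 2.14 ± 0.13. EPAS1, the hypoxia-inducible factor HIF-2α, rose by 3.22 ± 0.18. RUNX2, which activates MMP13 in hypertrophic chondrocytes, fell by 0.51 ± 0.16 (adjusted p = 0.00985), with libraries of the days overlapping. HDAC4, known in mouse cartilage as a repressor of RUNX2, fell by 0.70 ± 0.12, and NFKB1 was not called. In the comparison of day 30 with day 21, 8 of the 15 rose and 2 fell, where 27.2% of all genes were called higher and 27.1% lower.

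Inhibitors went both ways: of 9 genes, 3 rose, 3 fell and 3 were not called between day 45 and day 21, with a median log2 fold change of 0.31. For all genes tested the median was -0.05, with 27.1% called higher and 30.5% lower. TIMP4 had 6.39, 6.08, 8.07 and 7.79 CPM at day 21, 49.0, 48.4, 45.6, 42.3 and 45.4 CPM at day 30, and 178, 102, 171, 117 and 103 CPM at day 45. The 3 days were fully apart, and TIMP4 rose by 4.24 ± 0.19 between day 45 and day 21 (adjusted p = 1.11e-11). TIMP3, the matrix-bound inhibitor, rose by 1.80 ± 0.10 in that comparison (1054 ± 55 CPM at day 45 and 304 ± 12 CPM at day 21), nearly all of it after day 30 (1.58 ± 0.09, adjusted p = 1.92e-09).

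TIMP2, which forms the complex with MMP14 that binds pro-MMP2, fell by 0.87 ± 0.10 by day 30 (adjusted p = 2.15e-06) and was not called after it (0.02 ± 0.10, adjusted p = 0.893). Of the 3 genes of that complex, MMP2 and TIMP2 thus fell between day 45 and day 21, by 2.16 ± 0.14 and 0.85 ± 0.10 on the log2 scale, while MMP14 changed by 0.32 ± 0.13. TIMP1, the most abundant inhibitor at 759 to 1159 TPM, was not called between day 45 and day 21 (0.11 ± 0.14, adjusted p = 0.492), nor was the membrane-anchored inhibitor RECK (0.31 ± 0.13, adjusted p = 0.056). A2M, which traps proteases of all classes, peaked at day 30 with 513 ± 151 CPM and was not called between day 45 and day 21. Of the testican proteoglycans, SPOCK1 rose by 3.10 ± 0.28, and SPOCK2 and SPOCK3 fell by 2.68 ± 0.37 and 1.35 ± 0.17. SPOCK2 had 363, 34 and 48 counts at days 21, 30 and 45 and passed the filter mainly through its day 21 libraries. Its place among the inhibitors that fell is thus not independent of its fall.

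**Figure D5:**
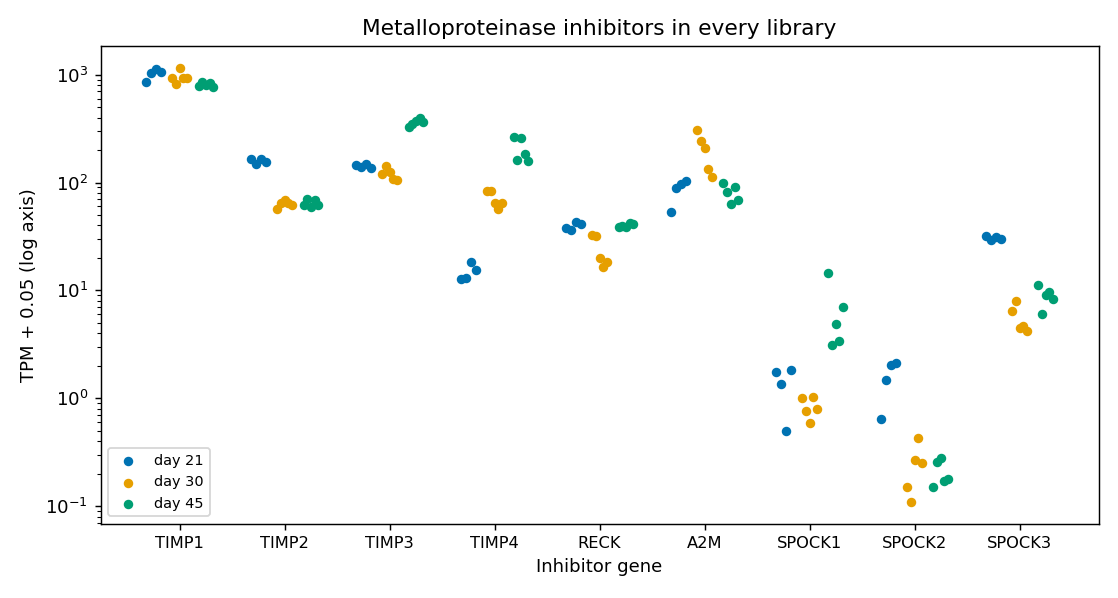
Levels of 9 metalloproteinase inhibitor genes in each of the 14 libraries, in TPM plus 0.05 on a log axis, with days 21, 30 and 45 from left to right within each gene. TIMP4 lies at 159 to 264 TPM in day 45 libraries and at 12.8 to 18.5 TPM in those of day 21, TIMP2 is lower at days 30 and 45, and TIMP1 stays within 759 to 1159 TPM.

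Genes of proenzyme activation, a list of 11 of which plasminogen (PLG) was not tested, split into 7 that rose, 2 that fell and 1 that was not called between day 45 and day 21, with a median log2 fold change of 0.94. All genes tested had a median of -0.05, with 27.1% called higher and 30.5% lower. FURIN, the proprotein convertase that cuts the propeptide of membrane-type enzymes and of MMP11, rose by 1.13 ± 0.13, and the related convertase PCSK6 by 1.69 ± 0.21. SERPINE2, a protease inhibitor rather than an activator, fell by 1.16 ± 0.14.

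Receptors that clear or induce metalloproteinases, a list of 7, had 5 that rose, 0 that fell and 2 that were not called between day 45 and day 21 with edgeR, and a median log2 fold change of 1.14. Over all genes tested, 27.1% were called higher and 30.5% lower, with a median of -0.05. CD44, the hyaluronan receptor that docks MMP9 at the cell surface, rose by 3.14 ± 0.18. SDC4, a heparan sulfate proteoglycan, rose by 1.76 ± 0.12, and DDR1, a collagen receptor, by 1.49 ± 0.13. LRP1, which takes up secreted metalloproteinases with their inhibitors, rose by 1.14 ± 0.20.

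Of 13 other metalloproteinase genes, 5 were tested and 7 were under 1 TPM in every library. MMP17, a membrane-type enzyme held by a lipid anchor, rose by 1.69 ± 0.28 between day 45 and day 21 (adjusted p = 5.32e-05), all of it after day 30 (2.12 ± 0.27, adjusted p = 6.9e-06). MMP25, anchored the same way, fell by 1.82 ± 0.31, and MMP28, epilysin, fell by 1.41 ± 0.16. MMP23B, which has a near-identical copy (MMP23A) and is therefore uncertain, was not called between day 45 and day 21 (0.13 ± 0.25) but was higher at day 30 than at day 21 by 1.68 ± 0.25 (adjusted p = 3.51e-05). MMP19 was not called (-0.05 ± 0.38, adjusted p = 0.917).

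The remaining marker lists describe the setting, for day 45 against day 21, where 27.1% of all genes tested were called higher and 30.5% lower. Of 6 chondrocyte markers 5 rose and 1 was not called, and of the 4 hypertrophic markers tested 3 rose and 1 fell. Of 8 fibroblast markers 2 rose (DCN and COL6A3) and 4 fell, among them THY1 by 2.04 ± 0.17 and PDGFRB by 1.12 ± 0.11, beside the fall of MMP2, an enzyme that fibroblasts make; their part in that fall was not tested. Of 5 osteoblast markers tested 2 rose and 1 fell, of 4 epithelial markers tested 2 rose and 1 fell, and of 3 endothelial markers tested 2 rose and 1 fell. The summed level of the 6 endothelial genes was 5.53 to 11.4 TPM in day 45 libraries and 10.1 to 14.3 TPM in day 21 libraries. KDR, a receptor for vascular endothelial growth factor, carried most of it at day 21 and fell by 1.59 ± 0.19, with 1.93 to 2.93 TPM at day 45 and 8.39 to 12.13 TPM at day 21. TIE1, a receptor tyrosine kinase, rose by 2.74 ± 0.27, with 3.14 to 7.91 TPM at day 45 and 1.34 to 1.93 TPM at day 21. PECAM1, CDH5, VWF and TEK were under 1 TPM in every library, and CDH5 was at 0. Of 3 osteoclast and macrophage markers tested 1 rose and 1 fell, and the same held for 2 neutrophil markers tested, AZU1 and LCN2. LCN2 (0, 4 and 161 counts at days 21, 30 and 45) passed the filter on low counts only through day 45. TEK (30, 19 and 116 counts) and ALPL (21, 69 and 759 counts) passed mainly through that day. The rises of LCN2, TEK and ALPL in these lists are therefore not independent of the filter.

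The genes most alike in profile were found by the root mean square difference of centred log2 CPM over the 14 libraries, among 14477 genes. For MMP2 they were CADM4 (0.171) and C1QTNF5 (0.198), which averaged 15.9 and 17.1 CPM at day 45 against 72.4 and 76.8 CPM at day 21. For MMP11 they were EGFL6 (0.268) and GAL3ST3 (0.328), and for MMP15 SBK1 (0.298) and EGFLAM (0.357). ABLIM3 and CD1D were nearest to both MMP3 (0.496 and 0.839) and MMP7 (0.688 and 0.733). For MMP9 they were GRP (1.12) and TMEM114 (1.19). These distances were the largest among the 10 genes, but MMP9 also varied most over the libraries, with an SD of 3.79 on the log2 scale against 0.222 for MMP14. For MMP1 they were ARHGEF19 (0.233) and VKORC1 (0.234), and for MMP13 KDSR-DT (0.257) and DOK1 (0.267). ZNF687 (0.090) and GPKOW (0.093) were nearest to MMP14, and STS (0.173) and PWWP3B (0.174) to MMP16. STS and PWWP3B, like MMP16, had a wide spread at day 30, with 3.39 ± 1.61 and 4.66 ± 2.72 CPM (SD, n = 5).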

How the data were processed

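RNA was extracted with an RNeasy micro kit and sequenced after TruSeq v2 library preparation, per the labels' protocols. Alignment with STAR 2.4.2a to GRCh38 and counting with RSEM 1.2.25 are named in the submitters' processing notes. Per the file headers, the deposited tables give an expected count, TPM and mean transcript length per gene and library. The release of the annotation was not given in the sources used here. Expected counts were rounded, filtered with filterByExpr by day and scaled by TMM, and tested with edgeR 4.0.16 in R 4.3.3, in 1 model of all 14 libraries with a mean for each day. Benjamini-Hochberg adjustment ran over 17838 genes. The SE is the log2 fold change over the square root of F. TPM served comparisons between genes and the limma 3.58.1 alternatives, on log2(TPM + 1) and log2(TPM + 0.1). DESeq2 1.42.0 was another alternative. Fold changes on the log2 scale come from the fit to the deposited counts, not from the authors. CPM used in figures and text come from the same deposited expected counts.

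Days were taken from the titles. Libraries of a day differed by more than sampling noise, and each counted as 1 replicate. That spread may be technical and does not show that the libraries came from separate cultures. Exact intervals of count ratios use counts summed over the libraries of a day. They cover counting error only and leave out the spread between libraries. Copies made by PCR are also in these counts, since they cannot be removed without molecular identifiers. The edgeR steps were tested on simulated data. Symbols were found for 60333 identifiers.

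The members and the 13 lists were chosen with earlier results of these data known. Lists were other metalloproteinases, inhibitors, activation, clearance and induction, transcription, and markers of chondrocytes, hypertrophic chondrocytes, osteoclasts and macrophages, neutrophils, endothelium, epithelium, osteoblasts and fibroblasts. Named were all 10 members, up to 4 genes per list with the smallest adjusted p for day 45 against day 21, TIMP1 to TIMP4, RECK and RUNX2, and the 2 genes nearest to each member in profile, of at least 1 CPM on average. A gene that this rule names is not reported here. Other genes named, such as LCN2, DMP1, HDAC4 and the stem cell genes, were chosen after their values were seen. Alternatives covered scaling, tools, filters, the fitted days, a replicate block, each library left out, the label conflict, day 30 replicates 3 to 5, and, added later, an offset per library from a loess trend over each gene's mean transcript length.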

Additional observations from a re-analysis of the deposited data

Results flagged for a closer look

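In groups of 4 or 5 libraries, a sample was picked out where its gap to the nearest other, divided by the range of the group, passed Dixon's 95% critical value. Chance alone gives this in about 1 in 20 groups, and 30 groups were looked at, 10 genes at each of 3 days. Day 45 replicate 2 stood apart in MMP9, at 1.99 CPM with the other 4 at 0.0823 to 0.331 CPM (gap over range 0.87). The same library stood apart in MMP11, at 2.44 CPM with the other 4 at 0.981 to 1.03 CPM (gap over range 0.968). Without it, the log2 fold change of MMP9 between day 45 and day 21 was -9.45 in place of -8.16, and that of MMP11 was -3.91 in place of -3.54, both still called with edgeR.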

How the results depend on the processing

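Of the values recomputed, 441 kept direction and call under other settings and 527 when 1 library was left out, while 20 and 9 turned direction, 32 and 18 lost their call, and 16 and 6 gained one. With day 45 replicate 1 placed at day 30, 6466 genes and 4 of the 10 members were called between day 45 and day 30, 6841 genes and 2 members were called for the later minus the earlier change, and that change was -2.84 for MMP3, -2.94 for MMP7 and -0.13 for MMP13, while MMP1 between day 45 and day 30 was -0.13. Without day 30 replicates 3 to 5, 5659 genes were called for the later minus the earlier change, and MMP16 was 0.16 (day 30 against day 21), -0.11 (day 45 against day 30) and -0.26 (later minus earlier). On log2(TPM + 1) and log2(TPM + 0.1), day 30 against day 21 was -0.48 and -0.49 for MMP13 and -0.51 on both for MMP14, and day 45 against day 21 was -0.05 for MMP14 and -0.42 for MMP16 on both. With the trend over transcript length removed, MMP16 for day 30 against day 21 and MMP14 for the later minus the earlier change were 0.00. MMP1 between day 45 and day 30 was -0.03 with voom and with the 1 CPM filter and -0.02 with only the days compared. Leaving out 1 library gave -0.14 to 0.23 for MMP13 and 0.00 to 0.14 for MMP14 (day 30 against day 21), -0.1 to 0.13 for MMP1 (day 45 against day 30) and -0.02 to 0.17 for MMP16 (day 45 against day 21). The cause of these shifts was not tested beyond what each setting changes. With the replicate number as a block, 8872, 9519, 9728 and 8632 genes were called in the comparisons 30 with 21, 45 with 30, 45 with 21 and later minus earlier, and 7, 6, 9 and 7 members, MMP13 between day 45 and day 30 losing its call (adjusted p = 0.0657). Same-numbered libraries correlated at -0.25 to 0.12 in 13 pairs and were the best match in 4 of 26 look-ups, so the numbers were not taken to pair the libraries. Levels near 0 limit MMP3 at day 21 and MMP9 at day 45, where libraries held 0 to 7 and 2 to 53 counts.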

Other observations

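The order of the day 45 libraries was read in the 7 genes that changed over 2-fold between day 45 and day 21. Replicate 2 was the highest of the 5 day 45 libraries in all 4 genes that fell (MMP2, MMP9, MMP11 and MMP15) and the lowest in 2 of the 3 that rose (MMP3 and MMP7). Replicate 1 was the highest in all 3 that rose and the lowest in 2 of the 4 that fell. COL10A1 had 3159 CPM in replicate 1 and 1079 CPM in replicate 2, the highest and the lowest of that day, and IHH had 99.4 and 54.2 CPM, likewise. Replicate 1 is the library whose treatment label reads 30 days, and the highest COL10A1 level of any day 30 library, 110 TPM, was below the lowest of the day 45 libraries, 909 TPM. These orders were looked for after the values were seen and were not tested.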
